A study of Rattus norvegicus with 16 samples.

Results

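The mammary glands described here came from female Wistar Han rats aged 35 days (postnatal day, PND, 35) whose mothers had received genistein, set against glands of untreated controls of the same age. They are 4 of the 16 arrays of the series, 2 pools for genistein and 2 for control, chosen by the treatment and age in the sample titles. Each pool joined RNA that had been extracted from the individual glands of 5 animals. The dams of the genistein group were gavaged once a day with 1 mg per kg of body weight from gestational day 1 to weaning on PND 21. The offspring therefore received no gavage of their own, and the last dose to their mothers preceded the PND 35 sample. All dams and offspring ate a purified diet without phytoestrogens. Each group started from 15 dams, and the 20 female offspring used per group were drawn as 1 female per litter. The other groups at PND 35 came from dams given vinclozolin, a fungicide with antiandrogenic action, or genistein and vinclozolin together, each at 1 mg per kg per day. The same 4 treatments were also sampled at PND 50, with 2 pools each. Whether the control dams were gavaged with the vehicle is not given in the sources used here.

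Genistein is an isoflavone of soy that binds estrogen receptors. At puberty the rat mammary gland is a branching tree of ducts that grows into a pad of fat. The ducts have an inner layer of luminal cells and an outer layer of contractile basal (myoepithelial) cells, and macrophages and mast cells gather around the growing duct ends. Estrogen acts on the epithelium through its receptor Esr1 and through growth factors such as amphiregulin, while progesterone, prolactin and the transcription factor Elf5 promote side branches and secretory cells. An array of whole gland reads the RNA of all these cells together, so that more cells of a type and more RNA per cell cannot be told apart.

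The values are on a log2 scale, where a difference of 1 is a doubling. Array medians lay between 7.05 and 7.145 over the 16 arrays, with the highest in genistein pool 1, against 7.08 in both control pools and in genistein pool 2. Replicate pools differed from each other with an SD of 0.206 for genistein and 0.164 for control over the 11796 genes tested. The tissue carried the markers of mammary gland in all 4 pools. Adipoq, the hormone of fat cells, lay at 12.74 and 12.87 in control and 12.66 and 12.63 with genistein. Csn1s1, a casein, lay between 12.80 and 12.95, and Krt8, a luminal keratin, between 9.65 and 10.10. With 2 arrays a group the precision is limited, and a p-value here reflects how pools of animals vary, not how single animals do.

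No gene of the 11796 tested passed an adjusted p of 0.05 in limma's test of genistein against control at PND 35, where the smallest adjusted p was 0.232. At an unadjusted p under 0.05 there were 1311 genes, 996 higher and 315 lower with genistein, where 590 would be reached without any difference. This split depends on the scaling of the arrays. With each array centred on its own median, 583 were higher and 524 lower. The median log2 fold change over all genes was 0.03 as deposited and 0 after centring, and the median standard error (SE) of a fold change was 0.09. Without genistein pool 2, 58 genes passed, 55 of them higher, and with median centring as well none did. Of those 58, genistein pool 2 lay on the same side of the control mean for 48 of the 55 higher genes and for all 3 lower ones. Irx1, Kit, Anxa8, Slc5a8 and Pla2g2d, described next, were among the 58. The genes named below are therefore described by their values, and none of them passed the limma test unless stated.

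Among 39 genes at least 1.5-fold higher with genistein, 34 had no overlap between the pools of the groups. The 12 of these with the smallest p are described first. Over all genes tested, the genistein pools both lay above the control pools in 28% and both below in 14.4%, or 20.6% and 20.2% after median centring. The adjusted p of the 12 lay between 0.232 and 0.269 (limma).

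Among the 12 were 3 transcription factors, Irx1, Elf5 and Tfap2c. Irx1, an Iroquois homeobox factor, measured 8.22 and 7.96 in the control pools and 8.82 and 8.60 with genistein, a log2 fold change of 0.62 (SE 0.11, n = 2 pools per group). Elf5, the factor that directs luminal progenitors toward secretory cells, measured 9.82 and 9.60 against 10.44 and 10.28 (log2 fold change 0.65, SE 0.13). Tfap2c, which encodes the AP-2 gamma factor of the mammary epithelium, measured 7.93 and 7.59 against 8.65 and 8.21 (0.67, SE 0.18). In each of these both genistein pools were above both control pools, and genistein pool 1 was the higher of its group. The Elf5 values with genistein at PND 35 lay near those of the control pools at PND 50, which were 10.32 and 10.49.

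The factor AP-2 binds a palindrome whose letters are GCCNNNGGC, so the promoters of the higher genes were read for it. RefSeq promoters of the rat assembly GRCr8 (250 bases before to 50 after the start of a gene, 300 in all) were found for 9 of the 12 higher and 8 of the 12 lower genes. The palindrome, which reads the same on both strands, was in 4 of the 9 (Irx1, Kit, Gjb2 and Slc5a8) and in 0 of the 8, against 15.7% of 27457 promoters in the table. In the larger lists it was in 3 of 12 luminal promoters (25%), 1 of 8 basal ones (12.5%), 2 of 15 macrophage ones (13.3%) and 2 of 16 of chemokines and cytokines (12.5%). The Irx1 promoter (plus strand, chr1:33122872-33123171) and the Kit promoter (minus strand, chr14:32978763-32979062) are shown 5′ to 3′ with the palindrome in capitals.
Irx1: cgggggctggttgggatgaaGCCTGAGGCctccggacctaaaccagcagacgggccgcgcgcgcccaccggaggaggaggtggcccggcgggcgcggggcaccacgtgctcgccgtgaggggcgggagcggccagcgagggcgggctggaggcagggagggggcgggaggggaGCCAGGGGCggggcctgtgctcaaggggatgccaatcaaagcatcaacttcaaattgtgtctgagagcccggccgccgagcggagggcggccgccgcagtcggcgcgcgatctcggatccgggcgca
Kit: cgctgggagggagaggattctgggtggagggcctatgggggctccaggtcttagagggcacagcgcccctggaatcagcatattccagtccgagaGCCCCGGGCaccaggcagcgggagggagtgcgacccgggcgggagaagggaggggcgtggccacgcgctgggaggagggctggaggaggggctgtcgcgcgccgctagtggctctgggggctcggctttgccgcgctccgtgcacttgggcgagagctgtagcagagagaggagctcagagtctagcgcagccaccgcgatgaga
The full estrogen response element, searched on both strands (GGTCA, a gap of 3 bases, then TGACC), was in 0 of these 17 promoters and in 0.0255% of the table. The shorter AGGTCA, 1 arm of that element with a preceding A, on either strand, was in 2 of the 9 higher genes (Acsm3 and Duox1) and 2 of the 8 lower ones (Retnlg and Mrgprx2), against 15.7% of the table. The Acsm3 promoter (plus strand, chr1:183564402-183564701) is shown because Acsm3 had the highest fold change of the 12, with AGGTCA in capitals.
Acsm3: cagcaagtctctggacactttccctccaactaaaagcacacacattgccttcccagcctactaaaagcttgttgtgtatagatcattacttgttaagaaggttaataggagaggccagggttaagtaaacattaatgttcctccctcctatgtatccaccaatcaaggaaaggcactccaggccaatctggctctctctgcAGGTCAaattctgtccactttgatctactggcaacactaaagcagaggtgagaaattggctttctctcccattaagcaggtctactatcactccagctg
The kappa B motif was in 0 of the 9 and 0 of the 8, in 4 of 16 chemokine and cytokine promoters and in 4.16% of the table, and the glucocorticoid response element in 0 of the 9, 1 of the 8 (Fam107a) and 0.422% of the table. A match describes letters in this window and shows neither binding nor a cause.

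The 12 also held a keratin and 2 cell junction genes. Krt17, a keratin of basal cells, measured 7.57 and 6.80 in the control pools and 8.48 and 8.03 with genistein (log2 fold change 1.07, SE 0.21). The control pools differed from each other by more than the gap between the groups' nearest pools. Gjb2, the gap junction protein connexin 26, measured 6.97 and 6.23 against 7.33 and 7.28 (0.71, SE 0.19). Cldn6, a claudin of tight junctions, measured 8.50 and 7.98 against 8.91 and 8.82 (0.63, SE 0.18). For both, control pool 2 was the low pool and the genistein pools lay close together.

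Acsm3, a mitochondrial enzyme that activates medium-chain fatty acids, had the highest fold change. It measured 6.54 and 6.14 in control and 8.79 and 8.03 with genistein (log2 fold change 2.07, SE 0.48). Kit, the receptor of stem cell factor on luminal progenitors and mast cells, measured 8.31 and 8.29 against 9.29 and 8.66 (0.67, SE 0.17). In Kit the genistein pools were farther apart than genistein pool 2 was from control. Slc5a8, a transporter of lactate and other monocarboxylates, had the same form, with 7.57 and 7.68 against 8.66 and 7.96 (0.68, SE 0.19). The rest were Anxa8, an annexin (0.71, SE 0.15), Cpm, a membrane carboxypeptidase (0.62, SE 0.16), and Duox1, a dual oxidase that makes hydrogen peroxide (0.62, SE 0.15).

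**Figure D1:**
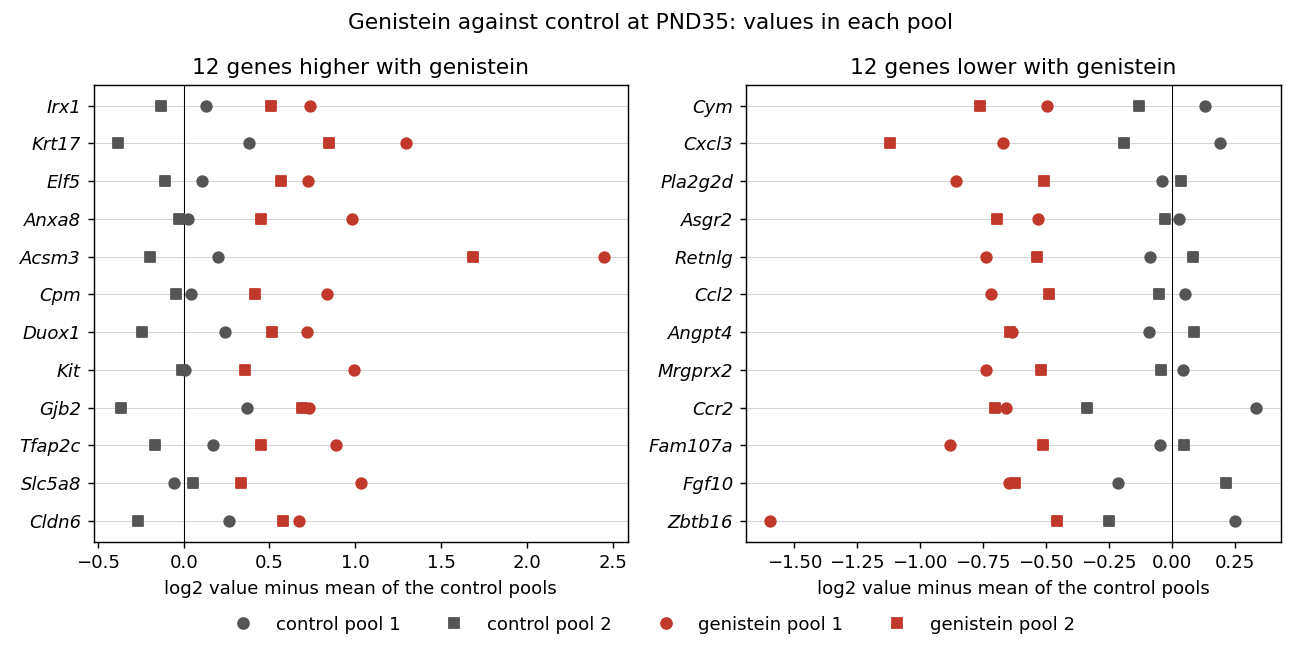
Log2 value of 12 higher and 12 lower genes in each PND 35 pool, minus the mean of the control pools (horizontal axis, log2). Grey marks control and red genistein, circles pool 1 and squares pool 2; the red marks lie to the right of the grey ones on the left panel and to the left of them on the right panel, since only genes without overlap were taken, and Acsm3 lies farthest out.

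Of 22 genes at least 1.5-fold lower, 19 had no overlap between the pools of the groups, and the 12 with the smallest p are described here. Cxcl3, a chemokine that attracts neutrophils, measured 6.76 and 6.38 in control and 5.90 and 5.45 with genistein (log2 fold change -0.89, SE 0.17, adjusted p = 0.232 in limma). Ccl2, which attracts monocytes, measured 11.62 and 11.52 against 10.85 and 11.08 (-0.60, SE 0.14). Ccr2, the receptor of Ccl2, measured 10.19 and 9.52 against 9.19 and 9.15 (-0.68, SE 0.19). In Ccr2 control pool 1 was the high pool of the 4, whereas in Ccl2 each group's pools lay close together.

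Pla2g2d, a secreted phospholipase A2, measured 10.64 and 10.71 in control and 9.82 and 10.17 with genistein (-0.68, SE 0.13). Retnlg, a resistin-like secreted protein, measured 7.01 and 7.18 against 6.35 and 6.56 (-0.64, SE 0.12). Mrgprx2, a receptor through which peptides activate mast cells, measured 8.39 and 8.30 against 7.61 and 7.82 (-0.63, SE 0.16). Both genistein pools were below both control pools in each. Asgr2, a subunit of the asialoglycoprotein receptor, had a log2 fold change of -0.61 (SE 0.12), and Cym, the protease chymosin, one of -0.63 (SE 0.12).

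The other 4 of the 12 were Fgf10, Angpt4, Zbtb16 and Fam107a. Fgf10, a growth factor that stromal cells send to the epithelium, measured 11.06 and 11.48 in control and 10.62 and 10.65 with genistein (-0.64, SE 0.21). Angpt4, an angiopoietin, measured 8.35 and 8.53 against 7.81 and 7.80 (-0.64, SE 0.16). Zbtb16, a transcription factor that glucocorticoids induce in many tissues, measured 10.38 and 9.88 against 8.54 and 9.68 (-1.03, SE 0.38). In Zbtb16 genistein pool 2 lay just below control pool 2, and genistein pool 1 was the low pool. Fam107a had a log2 fold change of -0.70 (SE 0.23). The adjusted p of the 12 lower genes lay between 0.232 and 0.374 (limma).

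All 22 luminal genes tested were higher with genistein, with a median log2 fold change of 0.37. Over all genes 60.8% were higher and the median was 0.03, and after median centring, where 50% of genes were higher, the 22 were still all higher with a median of 0.34. At an unadjusted p under 0.05, 16 of the 22 were higher and 0 lower, against 8.44% and 2.67% of all genes. In 17 of them both genistein pools lay above both control pools, against 28% of all genes. None passed adjustment over all genes.

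Besides Elf5, Cldn3 and Ehf had the smallest p of the luminal members. Ehf, an epithelial factor of the ETS family, measured 9.42 and 9.51 in control and 10.18 and 9.91 with genistein (0.58, SE 0.13). Cldn3, a claudin of luminal cells, measured 8.91 and 8.70 against 9.32 and 9.19 (0.45, SE 0.10). Gata3, the transcription factor that maintains luminal identity, measured 11.55 and 11.38 against 12.07 and 11.64 (0.39, SE 0.13). The groups did not overlap in any of these 3. Cdh1, the adhesion protein E-cadherin, had a log2 fold change of 0.35 (SE 0.12), Krt8 one of 0.31 (SE 0.09) and Krt19, another luminal keratin, one of 0.35 (SE 0.16). In Krt19 control pool 1, at 10.37, was above genistein pool 2, at 10.31.

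Of 14 basal and myoepithelial genes 13 were higher, against 60.8% of all genes. Their median was 0.30 (0.27 after centring, 0.15 without genistein pool 1 and 0.47 without genistein pool 2). At an unadjusted p under 0.05, 9 were higher and 0 lower, against 8.44% and 2.67% of all genes. In 11 both genistein pools lay above both control pools, against 28% of all genes. Krt14, the keratin partner of basal cells, measured 8.73 and 7.99 against 9.13 and 9.06 (0.74, SE 0.27). Itga6, the laminin-binding integrin, measured 10.04 and 10.03 against 10.31 and 10.31 (0.28, SE 0.06). Its partner Itgb4 had 0.37 (SE 0.10), the contractile gene Tagln 0.35 (SE 0.10) and the contractile gene Cnn1 0.32 (SE 0.12). The 1 lower member was Oxtr, the oxytocin receptor, at 11.36 and 11.30 against 11.51 and 10.59 (-0.28, SE 0.36), where the genistein pools stood on either side of the controls.

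Tight junction genes, of which Cldn3, Cldn4 and Cldn7 also count as luminal, were higher in 10 of 12, against 60.8% of all genes. Their median was 0.28 (0.18 without genistein pool 1), and 6 were higher at an unadjusted p under 0.05, against 8.44%. Ocln, occludin, measured 8.82 and 8.75 against 9.24 and 9.08 (0.38, SE 0.09), and Marveld3, a related membrane protein, 6.90 and 6.88 against 7.50 and 7.12 (0.42, SE 0.10). Cldn4 had 0.55 (SE 0.17). The widely expressed members Tjp1 (0.06, SE 0.07) and F11r (-0.03, SE 0.09) stood close to 0.

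Macrophage genes went the other way, with 18 of 20 lower and a median of -0.27 (-0.30 after centring, -0.16 without genistein pool 1 and -0.18 without control pool 2), against 39.2% of all genes. At an unadjusted p under 0.05, 7 were lower and 0 higher, against 2.67% and 8.44% of all genes. In 16 both genistein pools lay below both control pools, against 14.4% of all genes. Itgam, an integrin of myeloid cells, measured 7.32 and 7.27 in control and 6.78 and 6.97 with genistein (-0.42, SE 0.11). C1qb, a chain of complement C1q, measured 9.99 and 10.13 against 9.60 and 9.70 (-0.41, SE 0.12), and C1qa had -0.38 (SE 0.12). Csf1r, the receptor on which macrophages depend, measured 10.58 and 10.71 against 10.35 and 10.50 (-0.22, SE 0.11). For Lyz2, lysozyme, genistein pool 2 at 10.45 stood just below control pool 2 at 10.46, and genistein pool 1 was at 10.08. Cd14, a receptor for bacterial lipopolysaccharide, was one of the 2 higher members (0.14, SE 0.11).

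Mast cell genes were lower in 9 of 11, with a median of -0.25, against 39.2% of all genes. At an unadjusted p under 0.05, 3 were lower and 1 higher, against 2.67% and 8.44% of all genes. Hdc, the enzyme that makes histamine, measured 8.45 and 8.49 in control and 8.01 and 8.07 with genistein (-0.43, SE 0.09, adjusted p = 0.232 in limma). The pools of each group lay close together. Il1rl1, the receptor of interleukin 33, had -0.29 (SE 0.10), and the proteases Cpa3 (-0.25, SE 0.14) and Cma1 (-0.26, SE 0.18) had a similar size with a larger error. Kit was one of the 2 higher members.

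Among 23 chemokine and cytokine genes 14 were lower and 9 higher (median -0.08, but -0.02 without genistein pool 2), against 39.2% and 60.8% of all genes, with 6 lower and 2 higher at an unadjusted p under 0.05, against 2.67% and 8.44%. Ccl7, another attractant of monocytes, measured 7.21 and 6.97 against 6.67 and 6.72 (-0.39, SE 0.09). Cxcl12, a chemokine of stromal cells, had 0.02 (SE 0.09), and Cxcl13, an attractant of B cells, had -0.48 (SE 0.43) with overlapping pools. Interferon response genes were lower in 11 of 12 (median -0.22), against 39.2% of all genes. Only Gbp2, a GTPase, was lower at an unadjusted p under 0.05 (-0.22, SE 0.10). Usp18, an interferon-induced protease, measured 6.98 and 7.06 against 6.22 and 6.22 (-0.80, SE 0.39). Its SE, which comes from the spread over all 8 groups, was large although its pools at PND 35 were close. T and natural killer cell genes were higher in 6 of 11 and B and plasma cell genes in 3 of 5, against 60.8% of all genes. After median centring these were 5 of 11 and 2 of 5, against 50%, so neither list stood apart from all genes. Cd7 had 0.50 (SE 0.14) and Cd4 had -0.35 (SE 0.11).

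**Figure D2:**
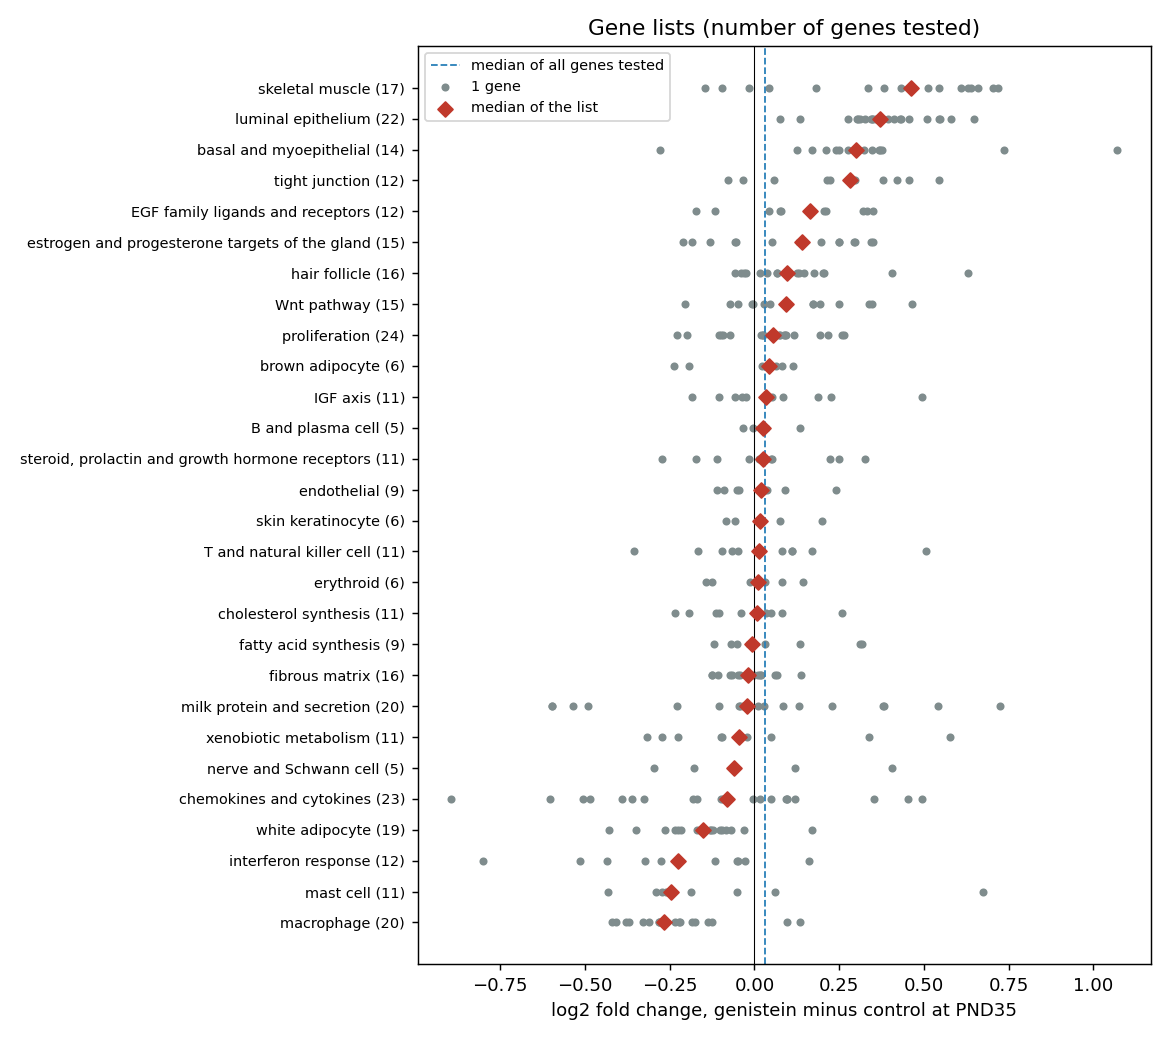
Log2 fold change of genistein against control at PND 35 (horizontal axis) for the tested genes of 28 lists (number of genes in parentheses), with a grey point per gene and a red diamond at the list's median. The dashed line is the median of all genes, 0.03; the luminal list stands wholly to the right of 0 and the macrophage list has 18 of 20 points to the left.

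Lists of other tissue compartments were read in the same pools. White adipocyte genes were lower in 18 of 19, against 39.2% of all genes, with 1 lower at an unadjusted p under 0.05, against 2.67%. Their median was -0.15 (-0.07 without control pool 2 and -0.25 without control pool 1). The list's level (the mean of its members' log2 values after subtracting each gene's mean over 16 pools) was 0.11 and 0.29 in control and 0.05 and 0.03 with genistein. Pparg, the master factor of fat cells, measured 10.80 and 10.90 against 10.50 and 10.35 (-0.43, SE 0.15), while Lpl (-0.13, SE 0.11) and Adipoq (-0.16, SE 0.10) had smaller differences. Skeletal muscle genes were higher in 14 of 17, against 60.8% of all genes, 0 of them at an unadjusted p under 0.05. Their median was 0.46 (0.13 without genistein pool 2 and 0.78 without genistein pool 1). The muscle list's level was 0.14 and 0.25 in control and 0.33 and 0.83 with genistein, so genistein pool 2 was the high pool. Ckm, muscle creatine kinase, measured 9.90 and 10.04 against 10.33 and 11.01 (0.70, SE 0.56). The muscle level was thus higher and the fat level lower in both genistein pools than in both control pools. The gap was small for genistein pool 1 in muscle, and for both genistein pools against control pool 1 in fat. The part of muscle and fat in the epithelial and macrophage differences was not tested. The luminal list's level was -0.24 and -0.40 in control and 0.17 and -0.04 with genistein. Hair follicle and skin keratinocyte levels, which bear on the keratins above, lay between -0.38 and -0.14 in all 4 pools.

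The genistein pools differed from each other in growth and lipid genes. Of 24 proliferation genes, 21 were below the control mean in genistein pool 1 (median difference -0.23) and 22 were above it in genistein pool 2 (median 0.31). Top2a, the topoisomerase of dividing cells, measured 9.462 and 9.200 in control, 9.004 in genistein pool 1 and 9.806 in genistein pool 2. The median fold change of the list was 0.06, and none was past an unadjusted p of 0.05. Fatty acid synthesis genes were all above the control mean in genistein pool 1 (9 of 9, median 0.29) and all below it in genistein pool 2 (median -0.17). Elovl6, a fatty acid elongase, measured 11.74 and 11.68 in control, 12.26 in pool 1 and 11.22 in pool 2. The luminal genes were above the control mean in both pools, 22 of 22 in pool 1 (median 0.47) and 21 of 22 in pool 2 (median 0.26), and so were 14 and 13 of the 14 basal genes (medians 0.47 and 0.15). Macrophage genes were below it in 18 of 20 in each (medians -0.32 and -0.16).

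**Figure D3:**
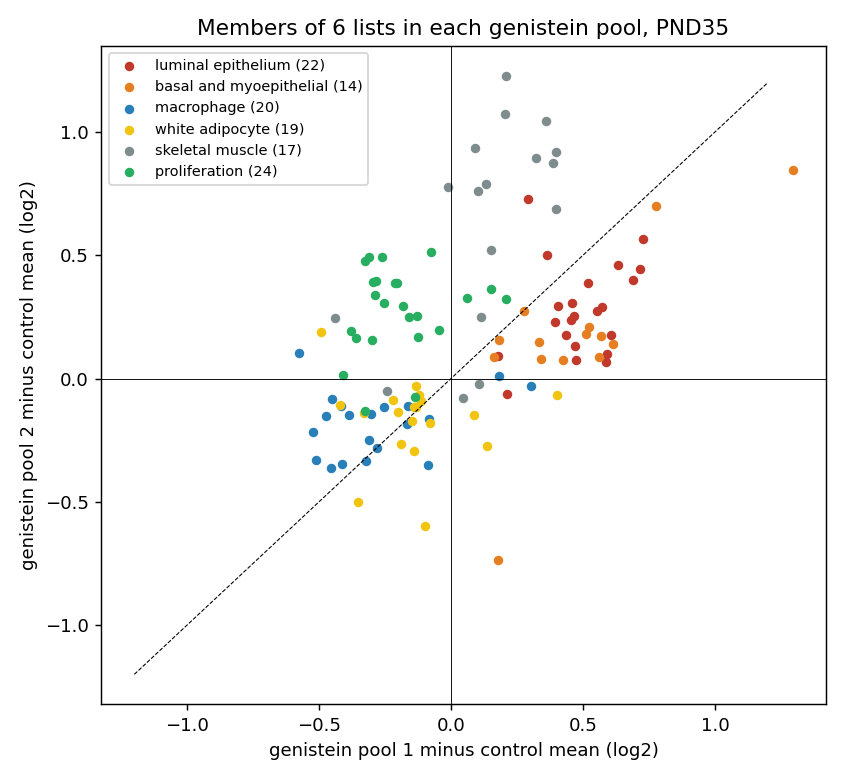
Difference of genistein pool 1 (horizontal axis) and genistein pool 2 (vertical axis) from the mean of the control pools at PND 35, log2, with a point per gene of 6 lists and the line of equal difference dashed. Luminal points lie to the right of 0 and, for 21 of 22, above it, macrophage points mostly lie below and to the left, and 22 of 24 proliferation points lie above 0 with 21 to the left.

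Hormone receptors and their known targets gave a mixed picture. Esr1, an estrogen receptor, measured 10.69 and 10.36 in control and 10.23 and 10.28 with genistein (-0.27, SE 0.13, adjusted p = 0.481 in limma). Pgr, the progesterone receptor and a target of estrogen, measured 9.46 and 9.12 against 10.17 and 8.90 (0.25, SE 0.32), so the genistein pools enclosed the controls. Prlr, the prolactin receptor, had 0.33 (SE 0.14), with genistein pool 2 at 9.78 beside control pool 1 at 9.79. Of 11 receptor genes 7 were higher, or 5 after median centring, against 60.8% and 50% of all genes, with a median of 0.02. Vdr, the vitamin D receptor, had 0.22 (SE 0.10), Ghr, the growth hormone receptor, -0.17 (SE 0.11) and Nr3c1, the glucocorticoid receptor, -0.02 (SE 0.09).

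Among 15 targets of estrogen and progesterone 10 were higher (median 0.14), against 60.8% of all genes, with 4 higher and 1 lower at an unadjusted p under 0.05, against 8.44% and 2.67%. The median was 0.07 without genistein pool 1 and 0.09 without control pool 2, and genistein pool 2 had 8 of 15 above the control mean. Ccnd1, cyclin D1, measured 10.65 and 10.38 against 10.95 and 10.78 (0.34, SE 0.11), and Myc, a factor of growth, 8.23 and 8.07 against 8.52 and 8.36 (0.29, SE 0.09). Wnt4, the signal of progesterone for side branching, measured 7.30 and 7.15 against 7.54 and 7.42 (0.25, SE 0.11), and Areg, amphiregulin, 9.52 and 8.77 against 9.60 and 9.39 (0.35, SE 0.26). Igf1, the growth factor of stroma, was the lower one at 12.49 and 12.47 against 12.30 and 12.29 (-0.19, SE 0.07). After median centring 2 were higher and 1 lower at that p, against 4.94% and 4.44% of all genes.

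Growth factor pathways showed single members apart from their lists. For the counts that follow, 60.8% of all genes were higher and 39.2% lower, or 50% each after median centring. In the EGF family 10 of 12 were higher (median 0.16, but 0.04 without genistein pool 1; genistein pool 2 had 7 of 12 above the control mean), among them the receptors Erbb3 (0.32, SE 0.11) and Erbb4 (0.33, SE 0.14), whereas Egfr had -0.12 (SE 0.07). In the Wnt pathway 10 of 15 were higher, or 9 of 15 after median centring, which is near the share of all genes. The median was 0.09, but -0.01 without genistein pool 1, 0.01 without control pool 2 and 0.26 without control pool 1. Wnt5b, a Wnt ligand, measured 6.62 and 6.81 against 7.30 and 7.06 (0.46, SE 0.10). In the IGF axis Igfbp2, a binding protein of IGFs, measured 7.60 and 7.67 against 8.24 and 8.01 (0.50, SE 0.13), and 6 of 11 members were higher. Among 11 xenobiotic genes 8 were lower, including Gstm1, a glutathione transferase, at 11.10 and 11.09 against 10.72 and 10.84 (-0.32, SE 0.07), and Ahr, the dioxin receptor, was higher (0.34, SE 0.13).

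Milk genes did not share a direction, with 9 of 20 higher, against 60.8% of all genes, and a median of -0.02. At an unadjusted p under 0.05, however, 5 were higher and 0 lower, against 8.44% and 2.67% of all genes. These counts were the same after median centring, against 4.94% and 4.44%. Btn1a1 (butyrophilin) and Mfge8, membrane proteins of the milk fat globule, were among the higher members. Btn1a1 measured 10.80 and 10.61 against 11.23 and 10.95 (0.38, SE 0.13) and Mfge8 11.10 and 10.88 against 11.33 and 11.40 (0.38, SE 0.11). The casein gene Csn2 measured 9.87 and 9.54 in control and 7.75 and 10.47 with genistein (-0.60, SE 0.98), and Wap, whey acidic protein, had -0.53 (SE 0.40). Genistein pool 1 was the lowest and genistein pool 2 the highest of the 4 in Csn2. Lalba, alpha-lactalbumin, had 0.03 (SE 0.12).

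The same exposure was measured at PND 50 on other pools. There no gene passed either (smallest adjusted p 1 in limma), and 307 genes reached an unadjusted p under 0.05, 144 higher and 163 lower. Luminal genes were higher in 4 of 22 (median -0.08, against 47.7% of all genes), basal genes in 1 of 14 (median -0.19) and macrophage genes in 14 of 20 (median 0.04). Among the genes that led at PND 35, Elf5 had -0.07, Krt17 -0.28, Acsm3 -0.41 and Kit -0.04, each a log2 fold change at PND 50.

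The difference between the ages was tested directly as the genistein effect at PND 35 minus that at PND 50, in which no pool is used for both ages. No gene passed (smallest adjusted p 0.507 in limma), and 906 reached an unadjusted p under 0.05, 663 higher and 243 lower, or 420 and 396 after median centring. Luminal genes had a higher effect at PND 35 in 21 of 22 (median difference 0.48), against 60.3% of all genes, and 14 of them were at an unadjusted p under 0.05, against 5.62%. Basal genes did so in 13 of 14 (median 0.46, 11 at that p) and tight junction genes in 12 of 12 (median 0.38, 6 at that p), or in 11 of 12 after centring, against 49.5% of all genes. Macrophage genes had a lower effect at PND 35 in 18 of 20 (median -0.29), against 39.7% of all genes, and 5 were at that p, against 2.06%.

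The 5 leading genes in each direction of this difference are given next. They were taken only from genes whose genistein and control pools did not overlap at PND 35. They are therefore not a choice independent of the PND 35 comparison, and no overlap rule was applied at PND 50. The effect of Krt17 differed by 1.35 (SE 0.30), that of Rasal1, a Ras GTPase activator, by 0.67 (SE 0.12), that of Bmpr1b, a receptor of bone morphogenetic proteins, by 0.69 (SE 0.15), that of Gzma, granzyme A, by 0.73 (SE 0.14) and that of Lbh, a transcription cofactor of mammary basal cells, by 0.62 (SE 0.14). Rasal1 measured 7.29 and 7.33 in control and 7.93 and 7.72 with genistein at PND 35, and 7.82 and 7.92 against 7.76 and 7.68 at PND 50. Its control level at PND 50 lay in the range of the genistein pools at PND 35. On the lower side Pla2g2d differed by -0.83 (SE 0.18), Cym by -0.70 (SE 0.16), Ccdc69 by -0.69 (SE 0.17), Npr1, the receptor of atrial natriuretic peptide, by -0.64 (SE 0.14) and Vegfd, a growth factor of lymph vessels, by -0.62 (SE 0.14). These 10 genes all had an adjusted p of 0.507 (limma).

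**Figure D4:**
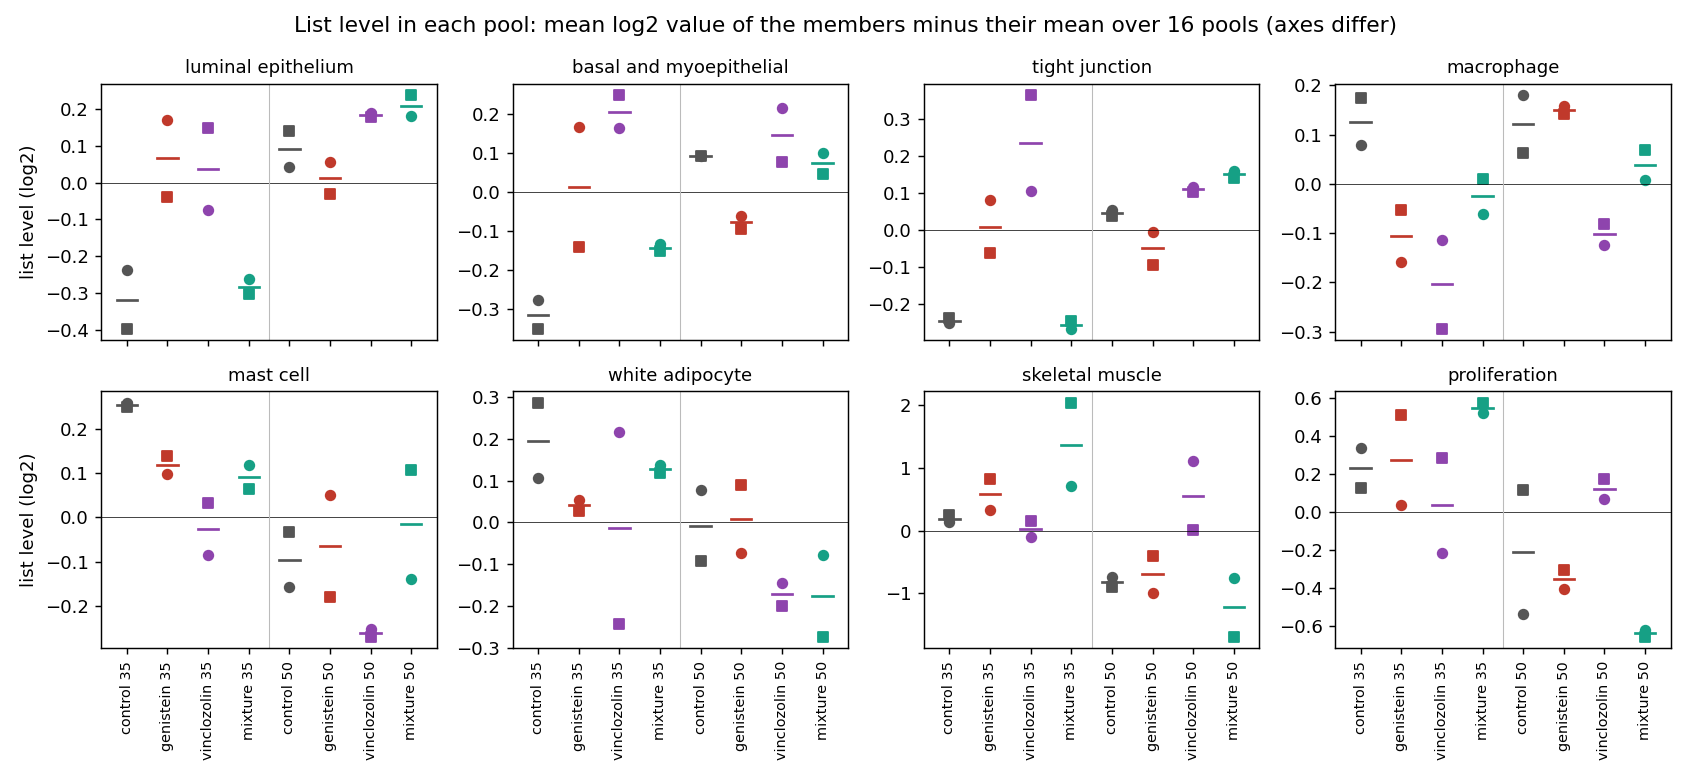
Level of 8 gene lists in each of the 16 pools (vertical axis, log2, mean of the members after subtracting each gene's mean over all pools; scales differ between panels), by treatment and age, with circles for pool 1, squares for pool 2 and a bar at the group mean. In the luminal panel the control pools at PND 35 lie at -0.24 and -0.40 and the genistein pools at 0.17 and -0.04, and in the muscle panel mixture pool 2 at PND 35 lies highest at 2.04.

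Genistein and vinclozolin at the same dose were compared directly at PND 35, since comparisons with the same controls are not independent. In limma's test 68 genes (0.576% of those tested) passed, 5 higher (0.0424%) and 63 lower (0.534%) with genistein. Of the 63, 23 had keratin or keratin-associated symbols and 5 more (Dsg4, Klk7, Padi3, Sbsn and Trex2) were in the hair follicle or skin keratinocyte list. The other 35 were not sorted by a list, and hold more genes known from hair or epidermis, such as Foxn1, Tgm1, Tgm3 and Cnfn, which were picked after the calls were seen. Krt25, a keratin of the hair root sheath, measured 5.15 and 5.12 with genistein and 10.48 and 10.59 with vinclozolin (-5.40, SE 0.13, adjusted p = 3.88e-10 in limma). Krtap15-1 (-4.41), Krt73 (-4.26), Krt72 (-4.10) and Krt27 (-3.89) followed, and 14 of 16 hair follicle genes were called lower. The hair list's level was 2.81 and 2.21 in the vinclozolin pools and at most -0.18 in the genistein and control pools, and its part in the other calls was not tested.

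The 5 genes called higher with genistein than with vinclozolin differed by less. Foxs1, a forkhead factor, measured 7.08 and 6.92 against 6.55 and 6.52 (0.46, SE 0.08, adjusted p = 0.0128 in limma). Ckap4, a protein of the endoplasmic reticulum, had 0.45 (SE 0.07), Cacna1g, a T-type calcium channel, 0.42 (SE 0.07), Srd5a3, a reductase of protein glycosylation, 0.40 (SE 0.07) and Serpine2, a protease inhibitor, 0.34 (SE 0.06, adjusted p = 0.041). All 5 lost the call without genistein pool 1 and without vinclozolin pool 2, and the total was 298 in place of 68 without vinclozolin pool 1. Luminal genes did not separate the compounds as a list, with 11 of 22 higher, against 68.9% of all genes, and a median difference of 0.01. Against control, the luminal median was 0.37 with genistein and 0.33 with vinclozolin, and the macrophage median was -0.27 and -0.38. These medians share the control pools, and the part of the vinclozolin pools' hair signal in them was not tested. Krt17 was called lower with genistein than with vinclozolin (-1.67, SE 0.21), and so was Ovol1, an epithelial zinc finger factor (-0.93, SE 0.11), while Elf5 had 0.32 (SE 0.13, adjusted p = 0.389).

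Genistein alone was likewise set against genistein with vinclozolin. No gene passed (smallest adjusted p 0.214 in limma), while 1062 were higher and 355 lower at an unadjusted p under 0.05, or 515 and 769 after median centring. Without genistein pool 2, 78 genes passed, and without mixture pool 1, 13 did. Luminal genes were higher with genistein alone in 21 of 22 (median 0.39), against 60% of all genes, with 13 at that p, against 9%. After centring they were higher in 20 of 22 with 10 at that p, against 43.2% and 4.37% of all genes. Elf5 measured 10.44 and 10.28 with genistein alone and 9.59 and 9.70 with the mixture (0.71, SE 0.13). Milk genes were higher in 16 of 20 (median 0.38, 9 at that p). Btn1a1 differed by 0.69 (SE 0.13), Tf, transferrin, by 0.76 (SE 0.14), Lbp, the binding protein of lipopolysaccharide, by 0.86 (SE 0.17) and Mroh3 by 0.60 (SE 0.11). Against control, the milk list's median was -0.31 with the mixture and -0.02 with genistein alone, so the list was lower with the mixture rather than higher with genistein.

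Muscle genes led the other direction, lower with genistein alone in 17 of 17 (median -0.71), against 40% of all genes, with 6 at an unadjusted p under 0.05, against 3.01%. Among them were Myh7, the slow myosin heavy chain, at -1.01 (SE 0.21) and Tnni1, slow troponin I, at -0.81 (SE 0.23). Myl3, a slow muscle myosin light chain that is not in the list, had -1.38 (SE 0.40). The muscle list's level was 0.71 and 2.04 in the mixture pools, and its part in the luminal difference was not tested. Myl3 measured 6.90 and 6.78 with genistein alone and 7.29 and 9.15 with the mixture, so mixture pool 2 set most of its difference. Proliferation genes were lower in 24 of 24 (median -0.27), of which 2 were at an unadjusted p under 0.05, against 3.01%. The proliferation list's level was 0.04 and 0.51 with genistein alone and 0.52 and 0.57 with the mixture, so genistein pool 1 set most of this difference. Trhde, a peptidase of thyrotropin-releasing hormone, had -0.81 (SE 0.25), and Oasl2, an interferon-induced gene, -0.76 (SE 0.25). Against control the luminal median of the mixture was 0.05, beside 0.37 for genistein alone, and its proliferation median was 0.35, beside 0.06.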

How the data were processed

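RNA of rat mammary gland was measured on Affymetrix arrays, with 16 pools of 5 animals in 8 groups. The table deposited by the authors gives 27342 probe sets between 2.2 and 13.9, read as log2 values from that range. How they were background corrected, normalized and summarized, and their log base, is not given in the sources used here. Platform annotation gave 1 gene symbol for 15097 probe sets, several for 323 and none used here for 11922, and 15067 of the named ones matched RefSeq genes of GRCr8. The probe set with the highest mean stood for a gene, and genes under the 25th percentile (5.661) were left out, which left 11796. Tests used limma 3.58.1 in R 4.3.3 (lmFit and eBayes on all 16 arrays with a mean for each group, which leaves 8 residual degrees of freedom, two-sided), with Benjamini-Hochberg adjustment over all genes tested and a threshold of 0.05. Plots were made in Python 3.11.15 with matplotlib 3.10.9.

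Named genes were those past the threshold by size of fold change or, where fewer than 5 passed in a direction, the 12 (other comparisons: 5) with the smallest p among genes at least 1.5-fold different without overlap, plus up to 6 members per list, the 3 with the smallest p and the 3 with the highest mean, and a fixed panel. For the difference between the ages, overlap was judged on the genistein and control pools at PND 35. The members, lists and rules were chosen with earlier results of these data known. Alternatives were other filters, scalings, probe set rules, fits and array sets, and each pool left out. On simulated data for genistein against control at PND 35 (11796 genes, 200 changed, 10 runs), the fit recovered 66.9% of genes shifted by 0.5 and 94.3% of those shifted by 1 on the log2 scale, and 5.36% of its calls were false. The simulated noise was normal, independent between genes, of equal SD in all groups and without a shift between arrays. The real pools differed in this (SD between replicates 0.206 for genistein and 0.164 for control at PND 35), so these shares need not hold for them.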

Additional observations from a re-analysis of the deposited data

How the results depend on the processing

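Across all alternatives run, none of the 24 leading genes of genistein against control at PND 35 changed sign in 694 values. Over all named genes and comparisons, 115 of 5798 values changed sign, in 48 of 205 gene and comparison pairs, none of them a gene past the threshold. Pgr, for example, had -0.38 without genistein pool 1 and 0.88 without genistein pool 2. Of the 5798, 18 came past the threshold and 46 lost it. Leaving out a single pool gave 0 to 58 genes past the threshold at PND 35. The 58 came without genistein pool 2, where 1 genistein pool remained and was assumed to vary like the other groups, and 1 gene came without either genistein PND 50 pool. The counts at an unadjusted p under 0.05 ranged from 464 to 1268 higher and from 174 to 410 lower, with 464 without genistein pool 1, and 613 higher and 174 lower without control pool 2. Quantile normalization gave 596 higher and 485 lower, median centring 583 and 524, and all probe sets, unnamed ones included, 1689 and 717. Median centring without genistein pool 1 gave 443 higher, and without genistein pool 2 it gave 642 higher and 641 lower. All probe sets and the 2 centred fits with a pool left out were added after the data were seen. At PND 50 leaving out a pool gave 0 to 1 genes (1 without genistein PND 50 pool 1), and for the difference between the ages 0. Against vinclozolin, the 68 genes became 23 with a filter at the 50th percentile, 14 with the arrays of those groups alone, 43 with the 8 arrays of PND 35, and 50 to 298 with a pool left out (298 without vinclozolin pool 1), and of the named calls Serpine2 was lost under most alternatives. Against the mixture a pool left out gave 0 to 78 genes (78 without genistein pool 2, 13 without mixture pool 1, 1 without either genistein PND 50 pool). The luminal median stayed between 0.26 and 0.47 and the macrophage median between -0.38 and -0.16, but the proliferation median ran from -0.30 to 0.32. Of 812 list medians in all, 63 moved by more than the spread between replicates. The labels do not say whether the replicate numbers pair the samples, and no consistent pairing was seen. Deviations of genistein and control pools with the same number at PND 35 correlated at 0.016, and between -0.366 and 0.301 over 28 pairs of groups. With the replicate number as a block, 0 genes passed at PND 35, with 981 higher and 327 lower at an unadjusted p under 0.05. The causes were not tested.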

Other observations

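Spt1, which encodes a salivary protein, was chosen after its values were seen, since it was the gene that came past the threshold when either genistein PND 50 pool was left out. At PND 35 it measured 6.634 and 6.004 in the control pools and 8.447 and 8.306 with genistein, a log2 fold change of 2.06 (SE 0.83, n = 2 pools per group, adjusted p = 0.409 in limma). At PND 50 the control pools lay at 6.67 and 6.68 and the genistein pools at 6.66 and 10.53, so that 1 genistein pool was far above every other pool. In the vinclozolin and mixture pools of both ages it lay between 5.67 and 7.21. The genistein pools at PND 35 and genistein pool 2 at PND 50 were therefore the 3 highest of the 16.

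Fkbp5, a chaperone of steroid receptors that glucocorticoids induce, was also chosen after its values were seen, beside Zbtb16. It measured 9.15 and 9.28 in control and 8.23 and 8.91 with genistein at PND 35 (-0.64, SE 0.25, adjusted p = 0.404 in limma). As in Zbtb16, genistein pool 1 was the low pool. Gpx2, a glutathione peroxidase of epithelium, was among the leading genes at PND 50, where it measured 6.59 and 7.44 in control and 6.44 and 6.39 with genistein. At PND 35 it measured 6.45 and 6.56 in control and 7.17 and 7.29 with genistein, the opposite order.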
